A study of Mus musculus with 4 samples.

Results

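The DOCK genes encode guanine nucleotide exchange factors, proteins that switch on small GTPases such as Rac and Cdc42 by exchanging their bound GDP for GTP. The 9 genes described here are Dock1, Dock2, Dock3, Dock4, Dock5, Dock6, Dock8, Dock9 and Dock10. They were found by symbol among the 25965 genes of a table of log2 RPM, where RPM is reads scaled to the library total. Dock4 was chosen by its difference between the genotypes in these libraries, where it had the third smallest p among the named genes higher in both libraries labelled knockout, and the other 8 were taken as its paralogues. The contrast between the genotypes was thus used by the choice, and the Dock4 values in that contrast are a description with no test.

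The cells were round spermatids, haploid germ cells that have finished meiosis and not yet elongated, sorted by flow cytometry from testes of mice on the outbred ICR background and measured with Smart-seq2, a full-length amplification protocol for small amounts of RNA. There were 4 libraries. Of these, 2 came from mice of genotype Wfdc15a+/-, with 1 altered copy of a gene for a small WAP-domain protein, and serve as the controls, and 2 came from mice of genotype Wfdc15a-/-. The controls also carry an altered allele, and wild-type libraries were not analysed here. The sources used here give neither the age of the mice, the kind of mutation nor whether replicates were separate animals, so p-values measure only the spread between these libraries, which may be technical.

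The targeted gene gave no clear check of the labels: Wfdc15a was read in every library, at 121 RPM in heterozygous library 1, 85.2 RPM in heterozygous library 2, 82.6 RPM in knockout-labelled library 1 and 59.5 RPM in knockout-labelled library 2 (limma adjusted p = 0.647). Both knockout-labelled libraries lay below both heterozygous ones, the nearest by 85.2 against 82.6 RPM. The genotype is therefore given as labelled. Library totals recovered from the steps of the values ran from 5774112 reads in heterozygous library 1 to 33853604 in heterozygous library 2, so 1 read was worth 0.173 RPM in the first and 0.0295 RPM in the second. The 15 round spermatid markers summed to 5068 to 5665 RPM in the 4 libraries. Among the 11 elongating spermatid markers, the sum was 11633 RPM in heterozygous library 2 and 6765 to 7750 RPM in the other 3 libraries. Taken singly, 6 of them were lower in both knockout-labelled libraries (15.0% of all tested genes were), 0 were higher and 5 overlapped. Tnp2 was at 393 and 582 RPM in the heterozygous and 173 and 127 RPM in the knockout-labelled libraries (limma adjusted p = 0.222). Prm1 was at 529 and 931 against 308 and 223 RPM (limma adjusted p = 0.295).

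DOCK proteins exchange nucleotides through a domain called DHR-2, and a second domain, DHR-1, binds membrane phospholipids. They fall into 4 subfamilies. Subfamilies A (Dock1, Dock2, Dock5) and B (Dock3, Dock4) bind ELMO scaffold proteins and act mainly on Rac, C (Dock6, Dock8) acts on Rac or Cdc42 depending on the member, and D (Dock9, Dock10) acts mainly on Cdc42. Rac and Cdc42 drive actin assembly at the cell edge. In the testis, a pathway through ELMO and Rac in Sertoli cells takes up dying germ cells, and Dock2 and Dock8 are known from white blood cells.

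All members lie in long genes of the mm10 build. By the deposited table, Dock4 spans chromosome 12 from 40446053 to 40846486 on the plus strand (400.4 kb), and GENCODE M21 annotates it as protein-coding, with 53 exons in the transcript of longest coding sequence. Its nearest paralogue by subfamily, Dock3, spans chromosome 9 from 106892834 to 107231909 on the minus strand (also 53 exons). Dock8 spans chromosome 19 from 24999529 to 25202432 on the plus strand (48 exons). No run of 50 bases was shared between the GENCODE M21 transcripts of any of the 9 genes, and 0.0175% of the Dock4 runs and 0% of the Dock8 runs occur in a transcript of another gene. For Dock3 the share was 7.07% and for Dock2 3.61%. Exons of 4930524O07Rik and 4930403D09Rik, transcribed from the other strand, overlap those of Dock3 and Dock2. The protocol does not keep the strand, so some of the reads of Dock3 and Dock2 cannot be told apart from these genes.

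The promoters of 4 members are shown, since Dock4 and Dock8 had the largest differences between the genotypes, Dock3 is the subfamily partner of Dock4 and was lower, and Dock2 was among the most abundant members. Each is the 250 bases before the RefSeq start (GRCm38.p6), 5′ to 3′ on the strand of the gene. Capitals mark matches on either strand to the GC box (GGGCGG), the CCAAT box (CCAAT) or the ETS core (GGAAGT), and overlapping matches run together. The windows are chr12:40445803-40446052 (+) for Dock4, chr19:24999279-24999528 (+) for Dock8, chr9:107231910-107232159 (-) for Dock3 and chr11:34783906-34784155 (-) for Dock2.
Dock4: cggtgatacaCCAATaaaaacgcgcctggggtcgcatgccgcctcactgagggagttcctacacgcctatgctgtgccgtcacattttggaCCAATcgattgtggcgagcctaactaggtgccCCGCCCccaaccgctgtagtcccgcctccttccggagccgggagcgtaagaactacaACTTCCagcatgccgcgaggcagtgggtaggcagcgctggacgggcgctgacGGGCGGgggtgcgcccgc
Dock8: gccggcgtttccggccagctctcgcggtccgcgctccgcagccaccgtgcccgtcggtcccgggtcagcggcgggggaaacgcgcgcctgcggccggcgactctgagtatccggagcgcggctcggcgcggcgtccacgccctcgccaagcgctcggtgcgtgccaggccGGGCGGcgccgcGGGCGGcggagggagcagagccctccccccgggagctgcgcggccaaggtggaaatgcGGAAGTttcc
Dock3: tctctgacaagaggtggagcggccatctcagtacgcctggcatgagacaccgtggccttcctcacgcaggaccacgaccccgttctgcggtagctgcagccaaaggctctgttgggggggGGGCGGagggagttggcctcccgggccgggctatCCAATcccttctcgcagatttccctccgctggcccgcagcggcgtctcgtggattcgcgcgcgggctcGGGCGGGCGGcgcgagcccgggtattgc
Dock2: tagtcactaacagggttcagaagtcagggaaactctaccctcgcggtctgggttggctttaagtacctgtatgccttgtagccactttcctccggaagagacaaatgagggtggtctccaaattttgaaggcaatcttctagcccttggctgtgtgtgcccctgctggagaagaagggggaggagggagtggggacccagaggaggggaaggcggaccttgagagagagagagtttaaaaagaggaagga

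The Dock4 window held 2 GC boxes, 2 CCAAT boxes and 1 ETS core, and the Dock8 window 2 GC boxes and 1 ETS core. The Dock3 window held 3 GC boxes and 1 CCAAT box, and the Dock2 window held none of the motifs searched. The windows of Dock4, Dock8 and Dock3 are rich in CG dinucleotides, with 24, 43 and 26, beside 4 in the window of Dock2 and a median of 6 over the 32851 promoter windows of the RefSeq table. Windows were found for 8 of the 9 members (11 windows, since Dock9 and Dock10 have more than 1 start). A GC box was present in 7 of the 11 windows, beside 32.7% of all windows, an ETS core in 4 of 11 beside 19.7%, and a CCAAT box in 2 of 11 beside 33.8%. None of the 11 held a cAMP response element (TGACGTCA), a TATA box (TATAAA) or an AP-1 site (TGACTCA or TGAGTCA), which 1.55%, 12.4% and 4.46% of all windows hold. These matches describe the letters only.

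All 9 members were read in all 4 libraries and passed the filter on low values (1 RPM or more in at least 2 libraries). The lowest count was the 12 reads of Dock8 in heterozygous library 1. Levels are compared between genes per kilobase of merged GENCODE M21 exons. On that scale Dock5, Dock3 and Dock2 were the most abundant, at 5.25 ± 2.56, 5.13 ± 1.47 and 5.09 ± 0.559 RPM per kb (mean ± SD over 4 libraries of both genotypes). Their ranges over the libraries overlapped, so these 3 are not ordered among themselves. Each of the 3 lay above Dock9 (1.27 ± 0.274), Dock1 (1.19 ± 0.553) and Dock6 (1.12 ± 0.232 RPM per kb) in every library. Dock9, Dock1 and Dock6 also overlapped one another. Dock10, Dock8 and Dock4 were the least abundant, at 0.539 ± 0.180, 0.520 ± 0.438 and 0.490 ± 0.421 RPM per kb. Dock8 and Dock4 had the widest spread relative to their mean, and their heterozygous and knockout-labelled values did not overlap.

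**Figure D1:**
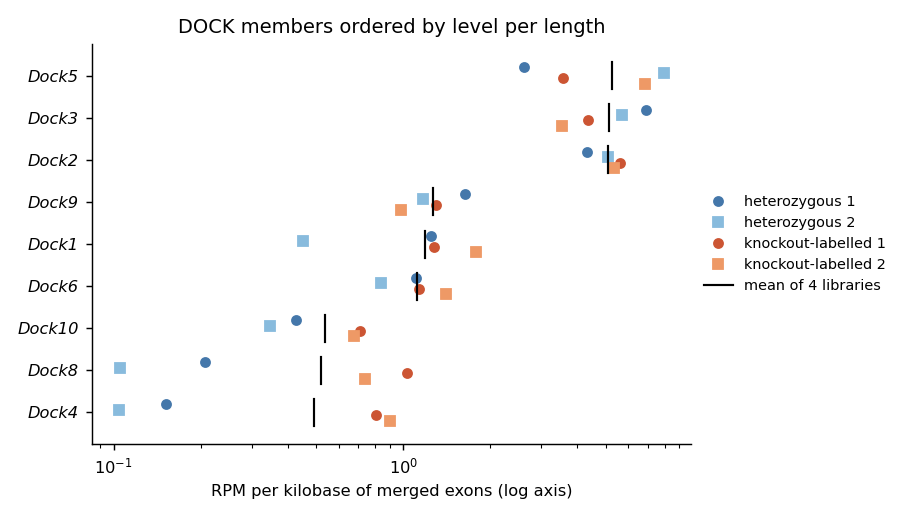
Level of each DOCK member in RPM per kilobase of merged exons (log axis), with 1 point per library, blue for heterozygous and orange for knockout-labelled, and a bar at the mean of the 4 libraries. Dock5, Dock3 and Dock2 lie at means of 5.09 to 5.25 RPM per kb, and Dock4 and Dock8 lie lowest in the heterozygous libraries.

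The order at the low end depends on which length is used. Dock4 has 22.9 kb of merged exons, the most of the members, and 5.93 kb of coding sequence, so per kilobase of coding sequence it ranked 6 of 9 in place of 9. Dock5, Dock3 and Dock2 stayed the first 3 on both lengths. Between the groups, the order of the 2 least abundant genes in the heterozygous mean was Dock8 (0.156 RPM per kb) above Dock4 (0.128 RPM per kb). In the mean of the libraries labelled knockout both were above Dock10, at 0.884 and 0.853 beside 0.692 RPM per kb.

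Dock4 activates Rac and the related GTPase Rap1 and is known for work on cell junctions and neuronal processes. In the main fit it had the largest log2 difference between the genotypes among the members. That of Dock8 was larger with voom (2.92 against 2.91), without heterozygous library 1 (3.05 against 3.03) and without knockout-labelled library 2 (2.80 against 2.68). Dock4 was at 3.46 RPM (20 reads) and 2.39 RPM (81 reads) in heterozygous libraries 1 and 2. It was at 18.4 RPM (390 reads) and 20.7 RPM (233 reads) in libraries 1 and 2 labelled knockout. The groups do not overlap, and each pair of replicates was close, within 1.45-fold for the heterozygous and 1.12-fold for the knockout-labelled libraries. The exact 95% Poisson intervals of the counts, which cover counting error only, reach up to 5.35 RPM in the heterozygous libraries and down to 16.6 RPM in those labelled knockout. The ratio of the means was 6.68 (2.93 ± 0.757 against 19.6 ± 1.59 RPM, SD, n = 2 each) and the log2 difference 2.76.

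**Figure D2:**
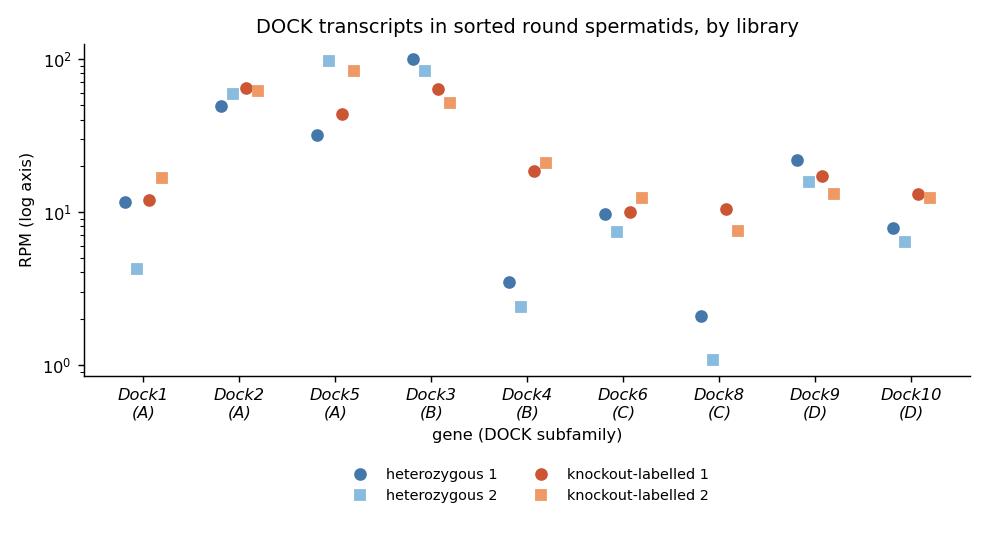
RPM of each DOCK member (log axis) in the 4 libraries, with blue symbols for heterozygous and orange symbols for knockout-labelled libraries, ordered by subfamily. The blue points of Dock4 lie at 2.39 and 3.46 RPM and the orange ones at 18.4 and 20.7 RPM, those of Dock8 at 1.06 and 2.08 against 7.45 and 10.3 RPM, while the other members lie closer together.

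Dock3, the other member of subfamily B, best known from neurons, had values in the opposite order. The heterozygous pair had 99.4 and 82.5 RPM, the knockout-labelled pair 63.0 and 51.3 RPM. Both knockout-labelled libraries lay below both heterozygous ones, with a ratio of 1.59 between the heterozygous and the knockout-labelled mean and a log2 difference of -0.67 (SE 0.27, 95% confidence interval -1.26 to -0.08). In limma's moderated test over all 15888 genes, adjusted by the Benjamini-Hochberg method, it did not pass (adjusted p = 0.591). The overlapping 4930524O07Rik was at 23.2 and 14.7 RPM in the heterozygous and 19.6 and 16.8 RPM in the knockout-labelled libraries.

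Subfamily A holds the founding member of the family, Dock1. Dock1, the exchange factor of the engulfment pathway, was at 11.6 and 4.19 RPM in the heterozygous pair and 11.96 and 16.7 RPM in the knockout-labelled pair. The groups only just do not overlap, since heterozygous library 1 almost equals knockout-labelled library 1, and the log2 difference of 1.02 (SE 0.51, 95% confidence interval -0.11 to 2.15, limma adjusted p = 0.629) did not pass. It was 0.28 without heterozygous library 2 (adjusted p = 0.798) and 1.75 without heterozygous library 1 (adjusted p = 0.0382). Peritubular and stromal markers also had their lowest sum in heterozygous library 2 (18.1 RPM, beside 103 to 131 RPM in the other 3), and their part in the Dock1 values was not tested.

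Dock2, the Rac activator of migrating lymphocytes, had the steadiest level of the family, at 49.2, 58.3, 63.9 and 61.1 RPM in heterozygous libraries 1 and 2 and knockout-labelled libraries 1 and 2. Its highest value was 1.30 times its lowest. The log2 difference was 0.22 (SE 0.27, 95% confidence interval -0.37 to 0.82, limma adjusted p = 0.873). Beside it, the 19 white blood cell markers in the table summed to 20.1 and 28.4 RPM in the heterozygous pair and 52.8 and 39.0 RPM in the knockout-labelled pair. Ptprc, the pan-leukocyte phosphatase CD45 gene, was at 1.21 and 2.30 RPM in the heterozygous and 5.43 and 4.08 RPM in the knockout-labelled libraries, and Coro1a, which encodes an actin-binding coronin of leukocytes, was at 0 reads in the heterozygous pair and at 4.58 and 6.74 RPM in the other pair. Cd3d, a T cell receptor subunit gene, had 11.4 and 18.9 RPM against 11.3 and 6.03 RPM. The part of white blood cells in the Dock2 values was not tested. The gene on its other strand, 4930403D09Rik, was at 23.1 to 37.0 RPM.

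Dock5, a Rac activator known from osteoclasts and mast cells, varied more between replicates than between genotypes. The heterozygous pair had 31.7 and 96.7 RPM, a 3.05-fold gap, and the knockout-labelled pair 43.5 and 83.5 RPM. The group means were 64.2 ± 46.0 and 63.5 ± 28.3 RPM. The log2 difference was 0.12 (SE 0.48, 95% confidence interval -0.94 to 1.18, limma adjusted p = 0.97). Its sign turned without heterozygous library 1 (-0.68) or knockout-labelled library 2 (-0.35), so no direction can be given.

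In subfamily C, Dock8 came close to Dock4. Dock8, whose loss in humans causes a combined immunodeficiency, was at 2.08 RPM (12 reads) and 1.06 RPM (36 reads) in the heterozygous and at 10.3 RPM (219 reads) and 7.45 RPM (84 reads) in the knockout-labelled libraries. The groups do not overlap. The ratio of the means was 5.67 (1.57 ± 0.718 against 8.90 ± 2.05 RPM), and the log2 difference was 2.56 (SE 0.60, 95% confidence interval 1.25 to 3.88). Dock8 did not pass over all genes (limma adjusted p = 0.33). It passed without heterozygous library 1 (log2 difference 3.05, adjusted p = 0.00323), without heterozygous library 2 (2.08, adjusted p = 0.0425) and without a filter on low values (adjusted p = 0.029), but not without knockout-labelled library 1 (2.33, adjusted p = 0.999), without knockout-labelled library 2 (2.80, adjusted p = 0.973), with a replicate block (adjusted p = 0.0526) or with voom on the recovered reads (adjusted p = 0.115). Dock6, the other member, whose loss in humans disturbs limb and scalp development, was at 9.70 and 7.36 RPM in the heterozygous and 9.97 and 12.3 RPM in the knockout-labelled libraries. Its groups do not overlap but lie close (log2 difference 0.39, SE 0.41, limma adjusted p = 0.841).

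In subfamily D, Dock10, a Cdc42 activator of lymphocytes and neurons, was at 7.79 and 6.32 RPM in the heterozygous and 12.9 and 12.3 RPM in the knockout-labelled libraries. These groups do not overlap, with a ratio of 1.79 and a log2 difference of 0.85 (SE 0.40, 95% confidence interval -0.034 to 1.73, limma adjusted p = 0.626). Dock9, an activator of Cdc42 in growing dendrites, had 21.6 and 15.5 RPM against 17.2 and 13.04 RPM. Its groups overlap, and the log2 difference was -0.29 (SE 0.37, limma adjusted p = 0.879). Outside the 9, Dock11, a D member, was at 2.94 and 3.25 RPM against 7.84 and 7.72 RPM (log2 difference 1.33, SE 0.49, limma adjusted p = 0.578).

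**Figure D3:**
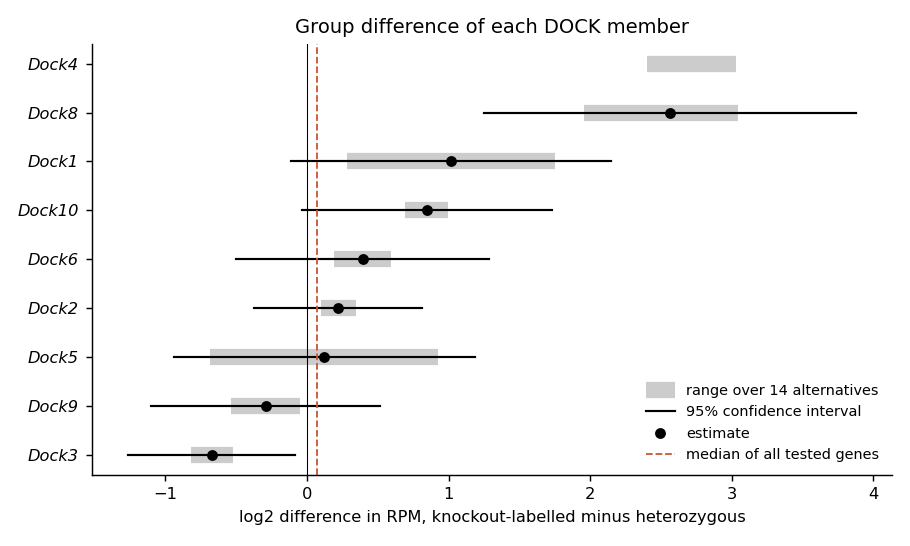
Log2 difference in RPM between knockout-labelled and heterozygous libraries for the 8 paralogues (point), with its 95% confidence interval from limma (line). The range over 14 alternative settings is grey for all members. For Dock4, which this contrast chose, only the grey range is drawn, without point or interval. The dashed line is the median of all tested genes at 0.07. The grey range of Dock4 (2.40 to 3.03) and the point of Dock8 (2.56) lie above the points of the other 7. Those lie between -0.67 and 1.02, and the grey range of Dock5 crosses 0.

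Over the family, both knockout-labelled libraries lay above both heterozygous ones for 6 of 9 members, where the share over all tested genes was 23.5%, and below both for 1 of 9, where it was 15.0%. The same contrast chose Dock4, so nothing is read from these counts. The median log2 difference was 0.39 over the 9 members and 0.31 over the 8 paralogues, beside 0.07 over all tested genes. Of 15888 genes, 0 passed limma at an adjusted p of 0.05 (0%), and none of the 8 paralogues did (adjusted p from 0.33 to 0.97). Unadjusted, 1283 genes had a p under 0.05 with limma and 1961 with voom, which also called 0 after adjustment. Of the paralogues, Dock8 and Dock3 were under 0.05 unadjusted, where 6.21% of tested genes were on the higher and 1.87% on the lower side. With 2 libraries a group, an exact two-sided permutation test of a single gene cannot give a p below 0.333.

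A comparison within each library does not depend on how libraries were scaled. Dock4 minus Dock3 in log2 RPM, not adjusted for length, was -4.84 and -5.11 in the heterozygous and -1.77 and -1.31 in the knockout-labelled libraries, a shift of 3.43 between the group means. Against the median of the 8 paralogues, Dock4 stood at -2.19 and -2.16 in the heterozygous and at 0.31 and 0.49 in the knockout-labelled libraries, a shift of 2.57. For 7 paralogues every knockout-labelled library lay above every heterozygous one in this measure, with shifts of 1.74 (Dock1) to 3.43 (Dock3). Dock8 was the exception. Dock4 minus Dock8 was 0.74 and 1.17 in the heterozygous and 0.83 and 1.47 in the knockout-labelled libraries. The groups overlap, with a shift of 0.20 that turned to -0.018 without heterozygous library 1 and to -0.12 without knockout-labelled library 2. These values come from the contrast that chose Dock4 and are given without a test.

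**Figure D4:**
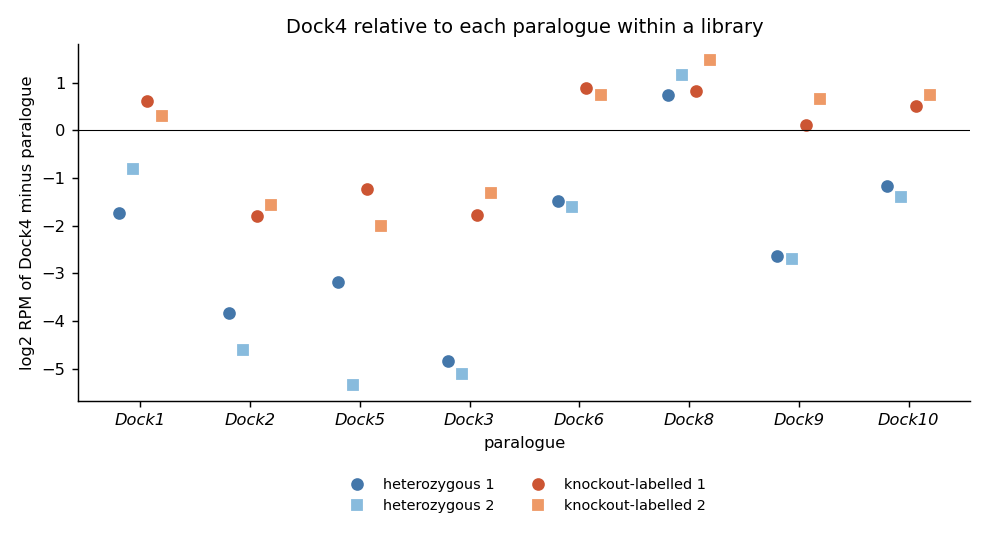
Log2 RPM of Dock4 minus that of each paralogue in the same library, with 1 point per library, blue for heterozygous and orange for knockout-labelled. For 7 paralogues the orange points lie above the blue ones, with a shift of the means of 1.74 to 3.43, and for Dock8 the colours overlap.

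The summed level of the family did not separate the genotypes. Summed per kilobase, the 9 members gave 18.6 and 21.8 RPM per kb in the heterozygous and 19.8 and 22.3 RPM per kb in the knockout-labelled libraries, so the groups overlap. Dock4 made up 0.814% and 0.479% of that sum in the heterozygous and 4.07% and 4.05% in the knockout-labelled libraries, and Dock8 made up 1.11% and 0.485% against 5.20% and 3.33%. Dock3 made up 37.1% and 26.2% against 22.0% and 15.9%.

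Likeness to Dock4 was measured as the root mean square difference of log2 RPM over the 4 libraries, each gene centred on its own mean. Dock8 differed from Dock4 by 0.29, and 26 other tested genes (0.164%) were nearer. Dock11 (0.76), Dock1 (0.94) and Dock10 (0.96) followed at a distance, and Dock3 was furthest among the family genes at 1.73. The 5 nearest named genes outside the members were Gpc4 (0.090), S100a11 (0.10), Nmbr (0.11), Amot (0.12) and Fundc1 (0.13). Their levels were low. All 5 reached 1 RPM in the knockout-labelled pair only, so they could pass the filter on low values only by lying above. The direction they share with Dock4 was thus fixed by the filter. Gpc4, a cell-surface proteoglycan gene, was at 0.693 and 0.532 RPM in the heterozygous and 3.45 and 4.08 RPM in the knockout-labelled libraries. With 4 libraries such a ranking describes the pattern only.

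Markers of several other testis cell types were also higher in the libraries labelled knockout, though none passed. Of 20 tested macrophage markers, 15 lay above both heterozygous libraries and 0 below, beside 23.5% and 15.0% of all tested genes. The median log2 difference was 4.47. Part of this count was fixed by the filter on low values. Markers such as Tyrobp, Cd68, Cybb and H2-Aa reached 1 RPM in the knockout-labelled pair only, so they could pass it only by lying above. Values of 0 reads, entered as 0.9 of a read, also enter that median. The whole list of 22 summed to 1369 and 1719 RPM in the heterozygous and 1995 and 1563 RPM in the knockout-labelled libraries, and Cx3cr1 and Aif1 made up most of it. Without these, a choice made after their values were seen, the other 20 summed to 57.0 and 45.0 RPM against 414 and 146 RPM. Cd74, the invariant chain gene of class II MHC, made the largest contribution to that sum in the knockout-labelled pair, at 133 and 31.1 RPM. H2-Aa, which encodes a class II MHC chain, had 0.520 and 0.177 RPM against 35.3 and 6.66 RPM (limma adjusted p = 0.222), and Lyz2, a lysozyme gene, 1.04 and 0.443 RPM against 37.6 and 8.08 RPM (0.231). The defining markers differed in level in the heterozygous pair. Tyrobp was the 1 marker of 22 with 0 reads in both, and Cd68 had 0 reads and 1 read. Csf1r, the receptor of a macrophage growth factor, had 3.98 and 4.08 RPM against 24.2 and 13.1 RPM, and Emr1, which encodes F4/80, had 12.99 and 12.5 RPM against 21.6 and 8.43 RPM. The part of macrophage RNA in the Dock4, Dock8 and Dock10 values was not tested. In such bulk samples fewer cells of a type and less RNA per cell cannot be told apart.

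**Figure D5:**
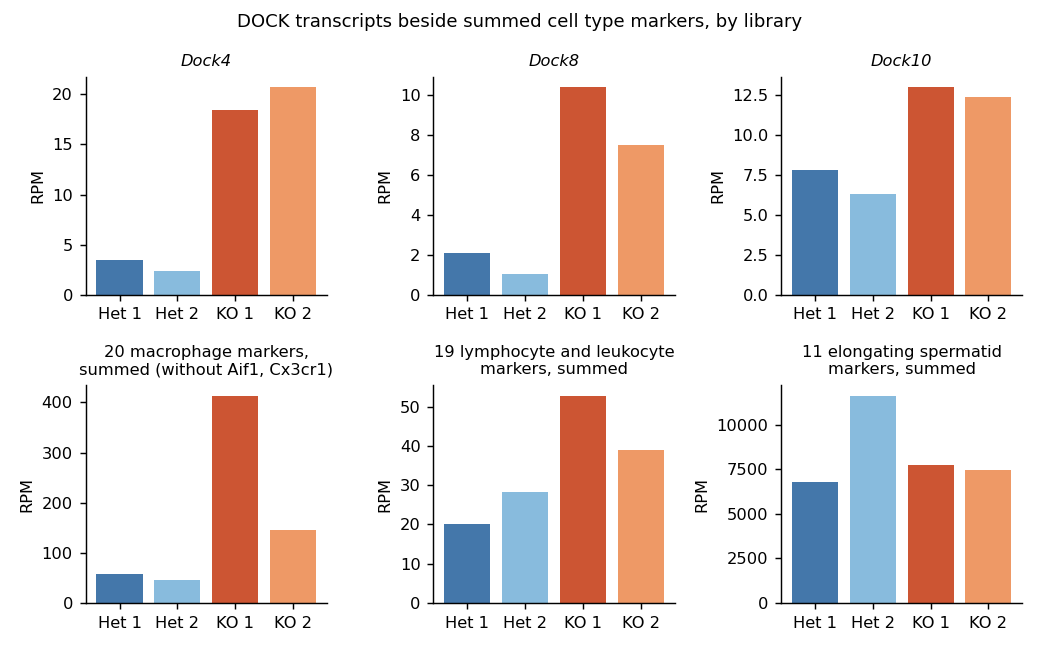
RPM of Dock4, Dock8 and Dock10 (upper row) and summed RPM of macrophage (without Aif1 and Cx3cr1), white blood cell and elongating spermatid markers (lower row) in each library, with bars from 0, blue for heterozygous and orange for knockout-labelled. Dock4, Dock8 and Dock10 and the macrophage and white blood cell sums are each higher in both knockout-labelled libraries, and the elongating spermatid sum is highest in heterozygous library 2, at 11633 RPM.

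The white blood cell list had 7 of 9 tested markers above both heterozygous libraries and 1 below, with sums of 20.1 and 28.4 RPM against 52.8 and 39.0 RPM. Here too the filter fixed the order of some markers. Coro1a, Cd53 and Cd2 reached 1 RPM in the knockout-labelled pair only. The same held in the lists below for Trf (Sertoli), Insl3 (Leydig) and Myh11 (peritubular and stromal). Beside this list and the next ones, 23.5% of all tested genes lay above and 15.0% below. Of the 19 markers in the table, 6 had 0 reads in both heterozygous libraries, and Cd79a of B cells and S100a9 of neutrophils had 0 reads in all 4. Cd3e of T cells had 2 reads in heterozygous library 2 and 0 elsewhere, but Cd3d was read in all 4 (6.03 to 18.9 RPM), as was the B cell gene Ms4a1 (1.36 to 3.07 RPM). Sertoli markers had 6 of 10 above and 0 below (sums of 52.6 and 65.3 against 96.2 and 101 RPM), Leydig markers 3 of 6 above and 1 below (12.1 and 5.49 against 43.3 and 20.9 RPM), and spermatogonial markers 4 of 9 above and 0 below (119 and 89.4 against 141 and 129 RPM). The Sertoli hormone gene Amh had 0 reads in all 4 libraries, and Sox9 was at 0.284 to 0.693 RPM. Trf, which encodes transferrin, had 0.520 and 0.768 RPM against 9.31 and 7.54 RPM (limma adjusted p = 0.273). Most peritubular and stromal markers overlapped (2 of 8 above, 0 below, 6 overlapping, median log2 difference 1.37). So did most endothelial markers (2 of 7 above, 1 below, 4 overlapping, median -0.30) and spermatocyte markers (1 of 10 above, 0 below, 9 overlapping, median 0.16). The medians were 0.71 for Sertoli, 2.27 for Leydig and 1.03 for spermatogonial markers. Of the round spermatid markers 5 of 15 were above both and 0 below, and of the elongating spermatid markers 0 of 11 were above and 6 below. The part of these cells in the DOCK values was not tested.

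The partners and targets of DOCK proteins were read as well, and none of their genes passed in either direction. Of the 13 ELMO and adaptor genes, all tested, 5 lay above both heterozygous libraries and 4 below (median log2 difference 0.08). Beside this list and those that follow, 23.5% of all tested genes lay above and 15.0% below, with a median of 0.07. Elmo1, the scaffold that couples Dock1, Dock2 and Dock4 to the membrane and is named outside the rule with its values known, had 24.9 and 29.3 RPM against 33.5 and 31.3 RPM. Nck1, an SH2/SH3 adaptor, was at 12.99 and 10.2 RPM against 20.5 and 24.5 RPM (adjusted p = 0.581), and 1520402A15Rik, the older name of the DOCK8-binding Lurap1, was at 51.4 and 53.5 RPM against 32.3 and 30.5 RPM (adjusted p = 0.585). Nck2 was 1.49-fold higher, and Bcar1, the scaffold p130Cas, was at 9.35 and 5.52 RPM against 4.77 and 3.55 RPM.

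Rap1b, a close relative of the Dock4 target Rap1a, was at 10.9 and 13.7 RPM against 20.2 and 28.0 RPM (log2 difference 0.96, SE 0.36, adjusted p = 0.585). Rac2, the Rac of blood cells and a target of Dock2, was at 5.89 and 8.57 RPM against 5.58 and 3.55 RPM. Cdc42, the target of subfamily D, was at 23.7 and 11.1 RPM against 22.5 and 21.8 RPM, with overlapping groups. Among the inhibitory RhoGDI and Rac GAP genes 5 of 14 were above and 1 below (median 0.15), with Arhgap24, a Rac GAP, at 9.35 and 7.62 RPM against 16.8 and 21.03 RPM (adjusted p = 0.544). The others with the smallest p were Arhgap22 (4.18-fold), Arhgdig (2.45-fold) and Arhgdib (2.21-fold), whose means were higher in the libraries labelled knockout. Arhgap22 was at 1.04 and 0.679 RPM against 5.86 and 1.33 RPM, so its fold rests mostly on knockout-labelled library 1. The groups of Arhgdib overlapped, at 3.29 and 1.03 against 6.52 and 3.02 RPM.

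Of the Rac effectors, 6 of 19 were above and 3 below (median 0.05). Cyfip1, a subunit of the WAVE complex that Rac binds, was at 2.08 and 2.45 RPM against 8.93 and 6.39 RPM (log2 difference 1.74, SE 0.53, adjusted p = 0.5). Abi1 and Wasf2, of the same complex, had the opposite order, at 48.8 and 31.3 against 30.5 and 16.6 RPM and at 52.6 and 85.2 against 46.2 and 41.7 RPM. Pak3, a Rac-activated kinase gene, was 1.42-fold higher.

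Exchange factors of the other structural class, which use a DH domain, had 7 of 21 tested genes above and 2 below (median 0.26). Prex2, a Rac activator, was at 2.08 and 1.30 RPM against 4.82 and 14.3 RPM (log2 difference 2.34, SE 0.66, adjusted p = 0.453). Sos2 was at 0.693 and 0.236 RPM against 3.73 and 3.46 RPM (adjusted p = 0.512), Fgd3 at 0.866 and 0.0295 RPM (the latter 1 read) against 3.64 and 1.42 RPM, and Vav2 was 2.14-fold higher with overlapping groups. Engulfment receptors and bridging molecules had 8 of 18 above and 2 below (median 0.91). Stab1 and Itgav, both receptors of dying cells, were at 1.04 and 1.24 against 6.99 and 4.35 RPM (adjusted p = 0.47) and at 5.72 and 0.738 against 10.2 and 9.41 RPM (adjusted p = 0.569). Stab2, a related receptor, was lower, at 47.3 and 70.9 against 25.2 and 40.9 RPM. Tyro3, a receptor kinase gene, was at 0 reads in the heterozygous pair and at 1.51 and 2.13 RPM in the other pair. Over all 15888 tested genes the corresponding shares were 23.5% above and 15.0% below. Sos2, Fgd3 and Tyro3 reached 1 RPM in the knockout-labelled pair only, so the filter on low values fixed their place above. The same held for Itgb5 of the engulfment list, named after its values were seen (0.346 and 0.591 against 3.07 and 1.33 RPM).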

How the data were processed

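RNA of sorted round spermatids was measured in 4 libraries, 2 heterozygous and 2 labelled knockout, grouped by their titles. The deposited values are log2 RPM, made by the authors and not scaled by gene length; HISAT2 2.1.0, Trim Galore 0.6.6, FastQC 0.11.8 and mm10 are named in the submitters' processing notes, while the counting tool and annotation used are not given in these sources. Reads were recovered by taking the lowest value of a library as 0.9 of a read, after which 99.7% to 100.0% of the other values were whole within 0.01 of a read. Each library had more genes with 2 reads than with 1. Whether mates of a pair were counted separately is not known, and if they were, the Poisson intervals are too narrow.

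The filter, 1 RPM or more in at least 2 libraries, left 15888 genes. These were tested with limma 3.58.1 (R 4.3.3), with a mean-variance trend, two-sided, adjusted by Benjamini-Hochberg over all of them, at a threshold of 0.05. The code was tested on simulated data. Folds are ratios of mean RPM. Gene lengths came from GENCODE M21 and promoters from RefSeq GRCm38.p6. Of 247 list symbols, 242 matched as written, 4 through an earlier name whose position overlapped, and 1 was unmatched. From each list up to 4 genes with the smallest p are named; other names are said to be chosen after their values were seen or serve as defining markers. Members and lists were chosen with earlier results of these data known. Alternatives were other scalings, log2(RPM + 1), a common lowest value, other filters, no trend, voom, a replicate block, leaving out each library, and coding length. Some results are not reported here.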

Additional observations from a re-analysis of the deposited data

How the results depend on the processing

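The log2 difference of Dock4 stayed between 2.40 and 3.03 under the 14 alternatives. The lowest, 2.40, came with log2(RPM + 1), which compresses low values, and the shift of Dock4 against the median paralogue was 2.23 on that scale (2.48 to 2.66 leaving out 1 library). Dock5 turned to -0.19 with voom and lay between -0.68 and 0.93 leaving out 1 library (-0.68 without heterozygous library 1, -0.35 without knockout-labelled library 2). The shift of Dock4 against Dock8 lay between -0.12 and 0.52 leaving out 1 library (-0.018 without heterozygous library 1, -0.12 without knockout-labelled library 2). The other 7 members kept their direction under all 14.

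The number of genes passing over the whole table was 0, and 1 (Fos, named after its value was seen) with log2(RPM + 1), 180 without a filter and 66 with a replicate block. Leaving out 1 library gave 0 to 558: 442 without heterozygous library 1, 558 without heterozygous library 2, 0 without knockout-labelled library 1 and 5 (Cwc22, Btbd1, Lyz2, H2-Eb1 and Cd74, named likewise) without knockout-labelled library 2. The spread then comes from the remaining pair, which assumes that the lone library varies likewise. The labels do not say that replicate numbers pair the libraries. Across genes, the deviations of same-numbered libraries had a correlation of r = -0.076. A single correlation over all genes cannot exclude a pairing that is weak or touches few genes, so pairing is left undecided. Depth limits Dock8 most, with 12 reads in heterozygous library 1.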
